A study of Homo sapiens with 8 samples.

Results

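The metallothioneins examined here are 6 genes, MT1E, MT1F, MT1G, MT1M, MT1X and MT2A, chosen by symbol, through their Entrez identifiers, from the 18478 genes of the deposited table. All 6 are in it. The values come from RNA-seq (total RNA, DNA nanoball sequencing) of 2 established human melanoma cell lines, A2058 and C8161, grown in DMEM supplemented with serum and antibiotics. In each line a retrovirus had brought in ATF3, whose product is an ATF/CREB-family factor induced by stress, and the cells set against these were the line's neomycin controls. There was 1 library per A2058 group and there were 3 per C8161 group, but the table holds 1 combined C8161 column per group, so no replicate spread could be had, no test was run, and each difference describes these columns alone. Whether the C8161 libraries came from separate cultures or transductions, and whether the cells are clones or pools, is not given in the sources used here. In these bulk values, a change in the number of cells expressing a gene and a change in the RNA per cell cannot be told apart.

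Metallothioneins are small, cysteine-rich proteins that bind zinc and copper, and bind cadmium when cells are exposed to it. They buffer free zinc, protect against toxic metals and react with oxidants. Their genes lie in a cluster on chromosome 16 and are induced by zinc and cadmium through the metal-responsive transcription factor MTF1, which binds metal response elements in their promoters. MT2A and several MT1 genes are also induced by glucocorticoids. MT2A is usually the most abundant metallothionein transcript in human cells, MT1X is often expressed beside it, and MT1E, MT1F, MT1G and MT1M vary widely between cell types.

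The members span chromosome 16 from 56608584, the first base of MT2A, to 56684196, the last base of MT1X (GRCh38). In order they are MT2A, MT1E, MT1M, MT1F, MT1G and MT1X, with MT1A, MT1B and MT1H, which are not members but are in the table, interspersed among them. All 6 members have a coding sequence of 186 bases in 3 exons. Over the 15 pairs of members the coding sequences are 88.7% to 95.2% identical. The coding sequences of the 3 members with substantial levels in these cells (GENCODE 29 transcripts) are shown because their likeness bears on how reads are assigned. Capitals in MT1E and MT1X mark bases that differ from MT2A, 14 positions in each.
MT2A: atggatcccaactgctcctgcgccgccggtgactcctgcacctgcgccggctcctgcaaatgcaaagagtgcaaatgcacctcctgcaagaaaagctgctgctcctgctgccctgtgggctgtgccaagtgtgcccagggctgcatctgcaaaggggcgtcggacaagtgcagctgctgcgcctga
MT1E: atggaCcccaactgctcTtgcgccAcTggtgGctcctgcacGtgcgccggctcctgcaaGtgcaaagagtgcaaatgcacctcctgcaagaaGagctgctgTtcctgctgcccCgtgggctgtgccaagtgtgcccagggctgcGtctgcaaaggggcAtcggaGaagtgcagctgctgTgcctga
MT1X: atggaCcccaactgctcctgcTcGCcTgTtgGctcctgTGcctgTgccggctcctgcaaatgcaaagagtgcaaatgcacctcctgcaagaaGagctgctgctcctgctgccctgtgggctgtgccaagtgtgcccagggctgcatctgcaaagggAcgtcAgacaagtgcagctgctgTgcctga

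Despite this likeness, few stretches of 50 bases are shared exactly outside MT1X and MT1G. The percentage of such stretches that also occur in a transcript of another gene is 4.88% for MT2A, 5.34% for MT1E, 3.59% for MT1F, 7.05% for MT1M, 20.2% for MT1G and 45.1% for MT1X. Of the 181 shared MT1X stretches, 117 occur in the GENCODE gene AC026461.1, and whether the authors' annotation held that gene is not known. By this measure alone, the level of MT1X is the least certain of the 3 abundant members. How reads that match several genes were treated is not given in the sources used here.

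The RefSeq promoter table (GRCh38.p14) holds 2 of the 6 members, MT2A and MT1X. Their 250 bases before the transcription start, on the plus strand, are chr16:56608334-56608583 and chr16:56682220-56682469. They are shown with those of MT1H (chr16:56669564-56669813) and MT1B (chr16:56651636-56651885), which lie between them in the cluster and were at or near 0 in both lines. Capitals mark matches on either strand to the core of the metal response element, searched as TGCACNC and TGCGCNC.
MT2A: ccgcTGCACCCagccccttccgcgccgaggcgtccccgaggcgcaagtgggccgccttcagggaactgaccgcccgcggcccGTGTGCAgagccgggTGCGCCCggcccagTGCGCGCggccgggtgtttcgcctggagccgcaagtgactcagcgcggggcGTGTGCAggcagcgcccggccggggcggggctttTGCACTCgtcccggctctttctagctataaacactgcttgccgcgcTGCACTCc
MT1X: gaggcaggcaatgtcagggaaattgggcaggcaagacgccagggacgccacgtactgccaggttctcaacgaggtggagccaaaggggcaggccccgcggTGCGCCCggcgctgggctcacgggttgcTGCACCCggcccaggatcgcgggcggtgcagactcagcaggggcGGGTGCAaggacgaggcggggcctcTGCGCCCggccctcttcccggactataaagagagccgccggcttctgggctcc
MT1H: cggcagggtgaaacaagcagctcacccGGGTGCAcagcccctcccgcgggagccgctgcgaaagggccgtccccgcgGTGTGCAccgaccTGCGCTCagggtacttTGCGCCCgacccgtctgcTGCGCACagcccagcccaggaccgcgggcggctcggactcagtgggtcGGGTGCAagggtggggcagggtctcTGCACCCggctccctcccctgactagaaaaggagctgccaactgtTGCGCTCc
MT1B: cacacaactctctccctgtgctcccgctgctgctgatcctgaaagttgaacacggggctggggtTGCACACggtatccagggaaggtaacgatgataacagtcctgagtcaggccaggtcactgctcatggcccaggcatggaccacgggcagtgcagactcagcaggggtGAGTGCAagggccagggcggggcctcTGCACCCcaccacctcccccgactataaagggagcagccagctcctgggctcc

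MT2A holds 7 matches, MT1X 4, MT1H 8 and MT1B 3. Among 35116 promoters of the same length, at least 3 matches occur in 1.58%, at least 4 in 0.37%, at least 7 in 0.0313% and at least 8 in 0.0171%. These shares are not matched for GC content, which is 62.4% to 73.2% in the 4 windows against a median of 58% over all promoters. MT1H, which holds the most matches, was at or under 0.14 RPKM in all 4 columns. One match of the AP-1 motif, searched as TGANTCA, lies in MT2A at −104 to −98 and another in MT1B at −146 to −140, against 6.57% of all promoters with at least 1. Neither it nor the cAMP response element TGACGTCA, a motif bound by ATF/CREB factors and present in 1.65% of promoters, was matched in the MT1X or MT1H window, and the cAMP response element was matched in none of the 4. A TATA box, searched as TATAAA, lies at −29 to −24 in MT2A and at −30 to −25 in MT1X and MT1B, against 10.7% of promoters with at least 1. In MT1X a metal response element match and a GC box (GGGCGG) share 2 bases; no other overlap was found among the motifs searched in these 4 windows. These matches describe letters, not binding.

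Levels are given in RPKM, a read count divided by transcript length and library size, so they can be compared roughly between genes. The limit from shared stretches given above applies, and RPKM holds no correction for GC content. The column sums were 470633 to 481302 RPKM, and 10866 to 11753 genes per column reached 1 RPKM. ATF3 was at 62.57 RPKM in C8161 with ATF3 against 4.76 RPKM in its control, and at 4.71 RPKM in A2058 with ATF3 against 1.22 RPKM in its control, so each column labelled ATF3 was the higher of its pair. In genes of short transcript, low A2058 values clustered, though loosely, near whole multiples of what 1 read is worth, which places the depth at about 17700000 reads with ATF3 and 18000000 in the control. These are approximate, because the authors' transcript lengths are unknown. In C8161 no depth could be read this way, so it is unknown.

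The melanocyte markers were checked first. In A2058 all 8 (MITF, SOX10, PMEL, MLANA, TYR, TYRP1, DCT and S100B) reached 1 RPKM, with sums of 1510 RPKM in the control and 1547 RPKM with ATF3. In C8161 their sums were 1.6 and 1.74 RPKM, TYR was listed at 0 and only MITF reached 1 RPKM, in the ATF3 column alone, so the melanocyte lineage is not visible in the C8161 values. Of the 4 markers of dedifferentiated melanoma, AXL, EGFR and WNT5A were higher in C8161 and NGFR was lower. AXL stood at 279.65 RPKM in the C8161 control against 11.41 RPKM in the A2058 control. The endothelial, fibroblast and leukocyte lists (13 genes in the table) summed to between 0.68 and 18.8 RPKM in every column, and CDH5, at 18.14 RPKM with ATF3 against 8.86 RPKM in the control, made up nearly all of the C8161 endothelial sum. The keratinocyte list summed to 146 and 152 RPKM in C8161, nearly all of it from SFN, while KRT5 and KRT14 were at or under 0.05 RPKM there. The part of these differences in the metallothionein levels was not tested.

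MT2A (chromosome 16, 56608584 to 56609497) was the most abundant member in every column. Its level was 173.58 RPKM in the A2058 control and 186.54 RPKM in A2058 with ATF3, and 2524.80 RPKM in the C8161 control and 2295.67 RPKM in C8161 with ATF3. Both C8161 columns were thus far above both A2058 columns. Among all genes MT2A ranked 6 in the C8161 control and 8 in C8161 with ATF3, against 393 and 360 in the corresponding A2058 columns. In the control columns the level was 14.5-fold higher in C8161, and in the ATF3 columns 12.3-fold higher.

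MT1E (chromosome 16, 56625781 to 56627112) was the member that separated the lines most. Its level was 0.22 RPKM in the A2058 control, 0.34 RPKM in A2058 with ATF3, 381.35 RPKM in the C8161 control and 329.33 RPKM in C8161 with ATF3. With a transcript of 704 bases, the A2058 values correspond to about 2.79 and 4.24 reads, so MT1E was barely detected in A2058 and no fold is given. In C8161 it ranked 176 among all genes in the control and 196 with ATF3.

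MT1X (chromosome 16, 56682470 to 56684196) was the only other member above 2 RPKM, and it differed least between lines among the 3 abundant members. Its level was 21.60 RPKM in the A2058 control, 23.91 RPKM in A2058 with ATF3, 39.03 RPKM in the C8161 control and 33.76 RPKM in C8161 with ATF3. The C8161 columns were again both above the A2058 columns, by 1.81-fold in the controls and 1.41-fold with ATF3.

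The remaining members were at or near the limit of detection. MT1G (56666730 to 56668065, on the minus strand) was at 1 RPKM in the C8161 control and 1.08 RPKM in C8161 with ATF3, at 0.16 RPKM in the A2058 control, a value worth about 1.17 reads, and listed at 0 in A2058 with ATF3. MT1F (56657959 to 56659303) was at 0.13 and 0.11 RPKM in the C8161 control and ATF3 columns and listed at 0 in both A2058 columns. MT1M (56632659 to 56633981) was at 0.10 RPKM in C8161 with ATF3 and listed at 0 in the other 3 columns. Thus 4 of the 6 members reached 1 RPKM in C8161 and 2 in A2058.

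**Figure D1:**
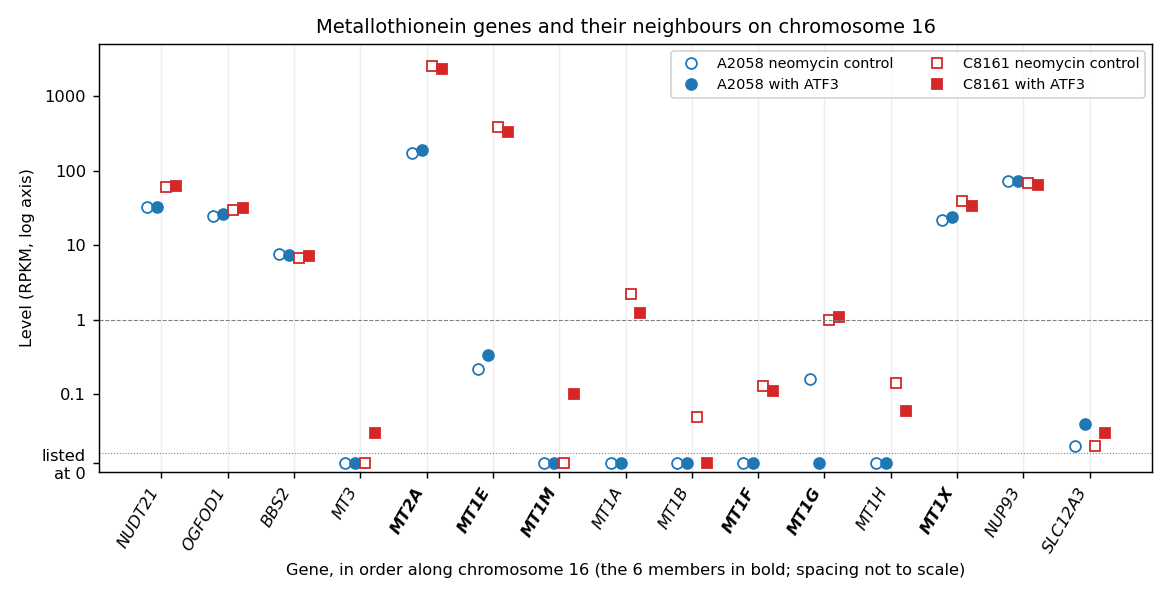
Level in RPKM (log axis, values of 0 drawn on the lowest line) of the metallothionein genes on chromosome 16 and of 5 other genes within 200 kb, in their order along chromosome 16, in the control (open) and ATF3 (filled) columns of A2058 (blue circles) and C8161 (red squares). MT2A and MT1X are present in both lines, MT1E is at 381.35 RPKM in the C8161 control against 0.22 RPKM in the A2058 control, and the genes between MT1E and MT1X are at or under 2.22 RPKM in all columns.

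The 5 metallothionein genes in the table that are not members were low throughout. MT1A was at 2.22 RPKM in the C8161 control and 1.21 RPKM with ATF3, and its control difference from A2058 was 1.69 on the log2(RPKM + 1) scale. Because MT1A was listed at 0 in A2058, that direction was fixed in advance and the size rests on the added 1, so nothing is read from it. MT1H was at 0.14 and 0.06 RPKM, MT1B at 0.05 RPKM and 0, and MT3, a metallothionein found mainly in brain, at 0 and 0.03 RPKM in these columns. MT1HL1, on chromosome 1, was at 0 and 0.06 RPKM. All 5 were listed at 0 in both A2058 columns. The abundant genes MT1E and MT1X therefore flank a run of genes within the cluster that were low or listed at 0 in both lines.

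The order of the members by level differed between the lines. In A2058 it was MT2A, MT1X, MT1E; in C8161 it was MT2A, MT1E, MT1X, and each order was the same in both columns of a line. MT2A made up 88.8% of the summed RPKM of the 6 members in the A2058 control and 85.7% in the C8161 control. MT1X made up 11.0% in the A2058 control and 1.32% in the C8161 control, and MT1E 0.112% and 12.9%. With ATF3 the shares stayed near these, MT2A at 88.5% in A2058 and 86.3% in C8161. In C8161, MT1E stood 9.77-fold above MT1X in the control and 9.76-fold above it with ATF3. MT2A stood 8.04-fold above MT1X in the A2058 control and 64.7-fold above it in the C8161 control.

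The first comparison set the control columns of the lines against each other, with differences on the log2(RPKM + 1) scale, which understates differences of low genes. A gene entered when either column held 1 RPKM or more, which gave 12372 genes, of which 9.36% were higher in C8161 by 2-fold or more and 20.7% were lower. Of the 6 members 4 could be compared, and 2 of these, MT2A and MT1E, were higher past 2-fold. None was lower. MT1E and MT1G passed the minimum only through C8161, so their direction here was set by the filter. Nothing is read from the count above 0, from the median, or from the place of MT1E in the count past 2-fold. All 4 lay above 0, as did 40.7% of all genes compared, with 59.3% below. The median difference of the 4 was 2.34, against −0.19 over all genes. MT2A and MT1X, which reached 1 RPKM in both columns, differed by 3.85 and 0.82.

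MT1E differed by 8.29 on this scale, rank 2 of 12372 genes counted from the highest. That size depends on the added 1, since the A2058 level lies under it. MT2A differed by 3.85, rank 105. MT1X differed by 0.82, rank 1496, and MT1G by 0.79, rank 1593, so both stayed under 2-fold. Under median-of-ratios scaling MT1X passed it, at 1.10. The MT1G call rests on the added 1: with 0.1 or 0.5 in its place the difference was 2.08 or 1.18, and MT1G also passed 2-fold with columns scaled to a common sum and under quantile normalization. A level band around each gene holds the middle 95% of the differences among its 500 neighbours in rank of mean level, as a description and not a test. For the most abundant genes these neighbours are simply the top of the range. In each comparison with a C8161 column, most genes in the MT2A window of 500 were thus less abundant than MT2A. Above their band lay 2.63% of genes, and below it 2.19%. MT1E lay above its band, whose upper edge was 4.13, and the other 3 lay inside theirs. Since MT1E entered only through C8161, nothing is read from this place or from its rank. With 200 neighbours in place of 500, MT2A also lay above its band.

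**Figure D2:**
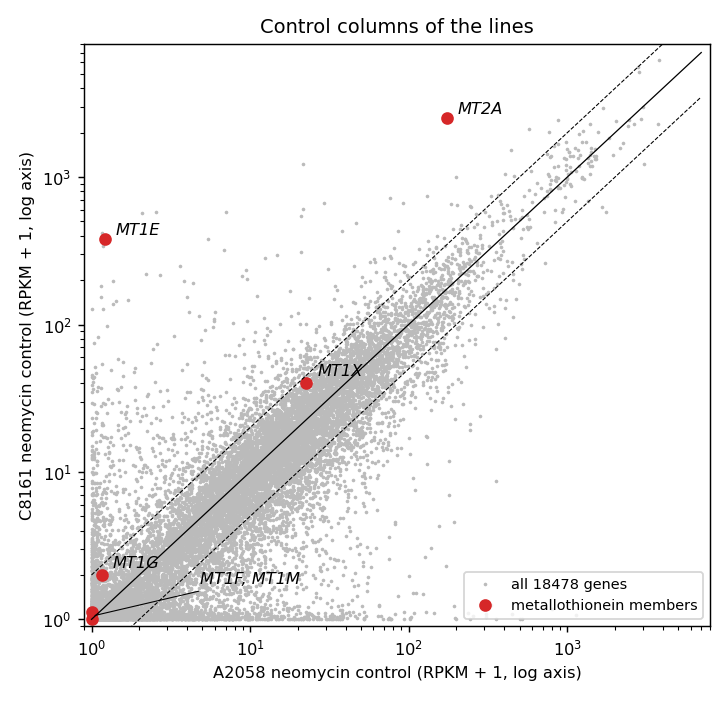
RPKM + 1 of all 18478 genes in the C8161 control column against the A2058 control column (log axes), with the 6 members in red, the line of equal values solid and 2-fold differences dashed. MT1E and MT2A lie above the dashed line, MT1X and MT1G between it and the line of equal values, and MT1F and MT1M at or next to the origin.

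The ATF3 columns of the lines gave the same order for the 3 abundant members. MT1E differed by 7.95, MT2A by 3.61 and MT1X by 0.48. Of 12381 genes compared, 9.92% were higher in C8161 by 2-fold or more and 21.4% lower. Of the 4 members compared 3 were higher, the third being MT1G at 1.06, which was listed at 0 in A2058 with ATF3. All 4 lay above 0, as did 41.4% of genes, with 58.5% below. MT1E and MT1G again entered only through C8161, so nothing is read from that count or from their place in the count past 2-fold. MT1E alone of the 4 lay above its level band, as did 2.65% of genes, with 2.21% below theirs. Nothing is read from this place of MT1E either, for the same reason. The MT2A value lay 0.09 above the edge of the band of 200 genes. The summed RPKM of the 6 members was 15.1-fold higher in C8161 in the control columns (2946 against 196 RPKM) and 12.6-fold higher in the ATF3 columns (2660 against 211 RPKM).

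Of 5 other genes described here that lie within 200 kb of the members, 4 could be compared, and none passed 2-fold on the log2(RPKM + 1) scale in the controls. BBS2, which encodes a subunit of the ciliary BBSome, differed by −0.16, and NUP93, a nucleoporin on the other side of the cluster, by −0.09. OGFOD1 differed by 0.27, and NUDT21, a subunit of the cleavage factor of pre-mRNA 3′ end processing, by 0.89. All 4 values were below those of MT2A and MT1E, whereas NUDT21 lay above MT1X and MT1G. Under median-of-ratios scaling, which moves all C8161 values up against A2058, NUDT21 passed 2-fold. SLC12A3, a kidney sodium chloride transporter, was at or under 0.04 RPKM in all 4 columns.

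In the controls MTF1 differed by 0.04, and by 0.46 under quantile normalization. It was at 3.42 RPKM in the A2058 control, 2.91 RPKM in A2058 with ATF3, 3.53 RPKM in the C8161 control and 3.92 RPKM in C8161 with ATF3. SLC30A1, the plasma membrane zinc exporter and itself an MTF1 target, was lower in C8161, at 7.07 RPKM in the control and 6.23 RPKM with ATF3 against 11.32 and 10.86 RPKM in A2058. The control difference of SLC30A1 was −0.61, under 2-fold and inside its level band, against a median of −0.19 over all genes compared. The part of MTF1 in the metallothionein levels was not tested.

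Zinc transporters are grouped in families, SLC30 genes moving zinc out of the cytosol and SLC39 genes moving it in. Of 10 SLC30 genes 6 were compared between the controls, and none passed 2-fold in either direction. SLC30A7, a transporter of the secretory pathway, differed by 0.77 and SLC30A4 by 0.36. Under median-of-ratios scaling and quantile normalization SLC30A7 was higher past 2-fold. Of 14 SLC39 genes 11 were compared, with a median of −0.78, against −0.19 over all genes compared. Of the 11, 4 were lower in C8161 past 2-fold and none was higher, against 20.7% and 9.36% of all genes. These 4 stayed lower past 2-fold under each of the 3 other scalings and with the GC and length trends taken out. SLC39A3 joined them with columns scaled to a common sum, and SLC39A13 was higher past 2-fold under median-of-ratios scaling and with the trends taken out. SLC39A6 was at 12.21 RPKM in the C8161 control against 101.60 RPKM in the A2058 control, SLC39A11 at 7.36 against 49.56 RPKM, and SLC39A4, an intestinal zinc importer, at 10.76 against 38.11 RPKM. Of the other importers, SLC39A8, SLC39A10 and SLC39A13 lay above 0. SLC39A6 alone of the 11 lay outside its level band, below it.

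Of 12 copper genes, all compared, 4 were lower in the C8161 control past 2-fold and none was higher, against 20.7% and 9.36% of all genes. No copper gene lay outside its level band. Under median-of-ratios scaling and with the GC and length trends taken out, 3 were lower. The copper importer SLC31A1 was at 15.44 against 64.78 RPKM, the exporter ATP7A at 0.99 against 4.57 RPKM and the chaperone ATOX1 at 129.25 against 320.52 RPKM. Of 10 iron and haem genes 9 were compared, with 3 higher and none lower past 2-fold, and none outside its level band. ACO1, an iron-responsive RNA-binding protein, was at 28.72 against 10.52 RPKM, the transferrin receptor TFRC at 225.71 against 92.53 RPKM and the ferritin light chain FTL at 5625 against 2779 RPKM. FTL stood close to the 2-fold line, at 1.02, and stood under it with columns scaled to a common sum and under quantile normalization. Under these settings 1 gene was lower past 2-fold, HMOX1 in the former and FTH1 in the latter.

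Glucocorticoid-responsive genes differed in both directions. Of 8, 7 were compared between the controls, with 2 higher and 2 lower past 2-fold in C8161. NR3C1, the glucocorticoid receptor, was also higher past 2-fold under median-of-ratios scaling and quantile normalization, and SGK1 was also lower past it with columns scaled to a common sum and with the GC and length trends taken out. DUSP1, a MAP kinase phosphatase, was at 51.41 RPKM in the C8161 control against 9.23 RPKM in the A2058 control, whereas the clock gene PER1 was at 0.84 against 12.52 RPKM and the transcription factor KLF9 at 0.50 against 6.79 RPKM.

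**Figure D3:**
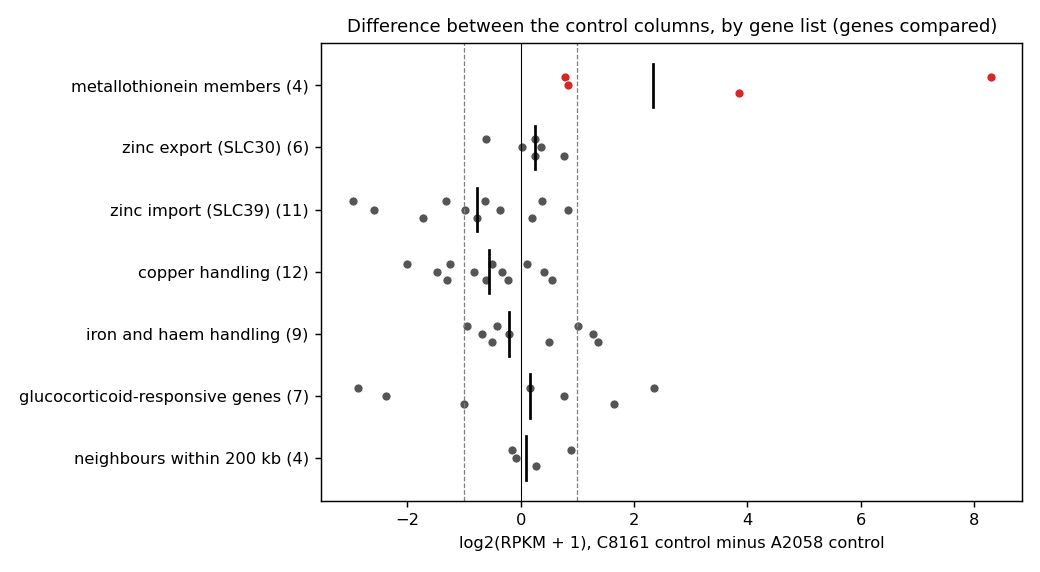
Difference of log2(RPKM + 1) between the control columns, C8161 minus A2058, for each gene compared in 7 lists (number compared in brackets, median as a vertical bar, dashed lines at 2-fold, vertical scatter only to separate points). The metallothioneins (red) reach 8.29, MT1E and MT1G among them having entered only through C8161. The medians of the zinc import and copper lists are −0.78 and −0.56, against −0.19 over all genes compared.

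The second comparison asks how the members differ between C8161 with ATF3 and its control. The 3 abundant members were all slightly lower with ATF3, and none passed the 1.2-fold used here, a log2 difference of 0.26. MT1E differed by −0.21, MT1X by −0.20 and MT2A by −0.14, which are RPKM ratios of 0.864, 0.865 and 0.909. MT1G differed by 0.06. Of 10941 genes compared, 2.71% were lower and 2.19% higher by 1.2-fold or more; of the 4 members compared none was either. All 4 lay inside their level bands, which 2.79% of genes exceeded and 2.68% fell short of. MT2A and MT1E had the same band here, −0.31 to 0.26, that of the most abundant genes, although their levels differ. Of the 4, 3 lay below 0 and 1 above, against 47.3% and 52% of all genes. The median of the 4 was −0.17, against 0.01 over all genes.

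Taking out the trends of the difference with GC content and transcript length moved these values. It took MT2A, whose transcript has 63.0% GC, from −0.14 to 0.03 and MT1E, with 59.5% GC, from −0.21 to −0.08. MT1X, with 50.9% GC, went from −0.20 to −0.13. The sign of MT2A thus flipped under that setting, while it stayed negative under each of the 3 other scalings tried. MT1A, a metallothionein outside the members, was lower past 1.2-fold and below its band, with a log2 difference of −0.54, but its levels were only 1.21 and 2.22 RPKM.

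The third comparison set A2058 with ATF3 against its control, with 1 library on each side. Only MT2A and MT1X could be compared, and both were slightly higher with ATF3. MT1X differed by 0.14 and MT2A by 0.10, RPKM ratios of 1.11 and 1.07. Neither passed 1.2-fold, as 2.02% of 11883 genes did upward and 1.51% downward, and both lay inside their bands, close to the upper edges of 0.18 and 0.13. Over all genes 2.69% lay above their band and 2.73% below. Above 0 lay 51.3% of genes, and below it 48.1%. With the GC and length trends taken out, both stayed above 0, at 0.11 and 0.07.

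**Figure D4:**
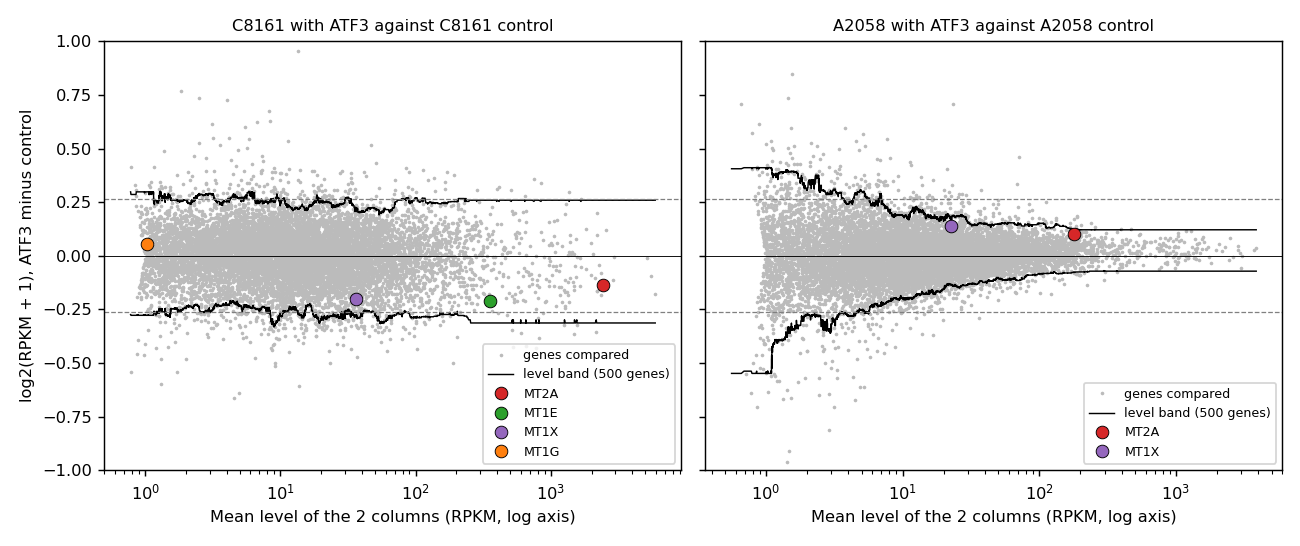
Difference of log2(RPKM + 1), ATF3 minus control, against mean level (log axis) for the genes compared in C8161 (left) and A2058 (right), with the level band as black lines, 1.2-fold as dashed lines and the members as large circles; the vertical axis is limited to −1 to 1, so the few genes beyond it are not drawn. The members are inside the band in both lines, MT2A, MT1E and MT1X below 0 in C8161 and MT2A and MT1X above 0 in A2058.

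The ATF3 difference of MT2A and MT1X thus had opposite signs in the lines. The contrasts were not alike in size, since ATF3 itself was 13.1-fold above its control in C8161 and 3.86-fold in A2058. C8161 minus A2058 was −0.34 for MT1X, rank 236 from the lowest of 10331 genes compared in both lines, and −0.24 for MT2A, rank 799. Over all these genes the median was 0.00 (SD across genes 0.18), and 25.4% were lower in C8161 and higher in A2058. With the GC and length trends taken out the values were −0.24 for MT1X and −0.05 for MT2A, which then lay above 0 in both lines. Whether the lines differ in this respect was not tested.

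MTF1 differed by 0.12 in C8161 and −0.18 in A2058, and SLC30A1 by −0.16 and −0.05. Of the zinc transporters compared, SLC39A3 (−0.32) and SLC39A4 (−0.30) were lower past 1.2-fold in C8161, though not with the GC and length trends taken out, and SLC30A4 (0.38, at 1.96 against 1.27 RPKM) was higher past it in A2058. SLC30A7 had the largest SLC30 difference in C8161, 0.17. Among the importers of A2058 the largest difference was −0.14, in SLC39A8. SCO2, an assembly factor of cytochrome c oxidase that handles copper, was at 22.41 RPKM with ATF3 against 30.19 RPKM in C8161 and at 31.59 against 27.87 RPKM in A2058. In C8161 it was lower past 1.2-fold, at −0.41, except with the GC and length trends taken out. HMOX1, haem oxygenase 1, was above its band in A2058, at 51.98 RPKM with ATF3 against 44.42 RPKM, and inside it in C8161, at 23.44 against 22.41 RPKM; STEAP3, a ferrireductase, had the largest iron-list difference in C8161, −0.12. TSC22D3, a glucocorticoid-induced leucine zipper protein, was at 6.12 against 5.14 RPKM in C8161 and 5.54 against 4.46 RPKM in A2058, differences of 0.21 and 0.26. Neither passed 1.2-fold, but in A2058 it did so with columns scaled to a common sum and under quantile normalization. None of the 4 flanking genes compared passed 1.2-fold in either line.

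The genes whose pattern over the 4 columns was most like each abundant member were sought among 11731 genes with a mean of at least 1 RPKM, by the Euclidean distance between log2(RPKM + 1) values centred on each gene's own mean. For MT1E they were C19orf33 (distance 0.17), the keratin KRT7 (0.24) and PLAU, the urokinase plasminogen activator (0.33). These 3 were likewise at or under 1.09 RPKM in A2058 and between 338.24 and 568.72 RPKM in C8161. For MT2A they were GALNT14, an enzyme of O-glycosylation (0.06), the kinase PLK2 (0.06) and the secreted glutathione peroxidase GPX3 (0.09), of which only PLK2 was also abundant, at 309.23 RPKM in the C8161 control and 19.82 RPKM in the A2058 control. For MT1X they were MAGED2 (0.02), GPRIN1 (0.05) and MRPL40, a protein of the mitochondrial ribosome (0.06). With 4 columns such a likeness rests on the difference between lines and on small differences within them.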

How the data were processed

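RNA-seq values of 8 libraries were used as deposited: the authors give RPKM per Entrez gene, per the file headers, each A2058 library in a column of its own and each C8161 group of 3 libraries in 1 combined column (mean or pooled reads not stated). Reads were processed with Bowtie2, RSEM and hg38 per the submitters' processing notes; how annotation, strand and multiply mapped reads were handled is not given in the sources used here. Entrez identifiers were matched to RefSeq genes of GRCh38.p14 (18156 of 18478). Transcript length, GC content and coding sequences came from GENCODE 29, using the APPRIS principal transcript where one exists.

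Differences are log2(RPKM + 1) over genes with at least 1 RPKM in either column compared, with a size of 1.2-fold (ATF3 against control) or 2-fold (between lines). With 1 value per group, limma was not run and no p-value is given. A level band is the middle 95% among the 500 genes nearest in rank of mean level, which for the most abundant genes are the top of the range. The code for the ATF3 comparisons was run on simulated data, with planted changes well past 1.2-fold and noise from read counting alone. That run checks the code and does not show how differences as small as those of the members would fare between real libraries. Depth in A2058 was sought from the steps of low values in transcripts of 400 to 1500 bases. Named genes are the members, the other metallothioneins, MTF1, SLC30A1, ATF3, up to 3 genes per list with the largest control difference, the gene of each list with the largest ATF3 difference in each line, the neighbours within 200 kb (1 is not reported here) and the 3 nearest patterns of each member at a mean of at least 1 RPKM; CDH5, SFN, single markers and list genes whose call changes with the processing (SLC39A13, NR3C1, SGK1, FTH1), and the importer SLC39A10, are named beside these, chosen after their values were seen. Members and lists were chosen with earlier results of these data known. Alternatives were 2 other pseudocounts, 2 other minimum levels, 3 scalings (columns to a common sum, median of ratios, quantile), removal of the GC and length trends by lowess, and a band of 200 genes. Python 3.11.15, pandas 2.3.3 and statsmodels 0.14.6 were used.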

Additional observations from a re-analysis of the deposited data

Results flagged for a closer look

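MT1X was higher with ATF3 in the A2058 column and lower in the combined C8161 column, which gave a difference of −0.34 (C8161 minus A2058, log2 scale). MT2A showed the same opposite signs, with a difference of −0.24. Of 10331 genes compared in both lines, 25.4% were likewise lower in C8161 and higher in A2058, and both members lay inside their level bands in each line. With the GC and length trends taken out, MT2A was above 0 in both lines, at 0.03 in C8161 and 0.07 in A2058, and its difference was −0.05, while MT1X kept opposite signs with a difference of −0.24. ATF3 itself was 13.1-fold above its control in C8161 and 3.86-fold in A2058, so the contrasts were not alike in size. Each direction rests on 1 column per group, and the difference between lines was not tested for either gene.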

How the results depend on the processing

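The median difference between the control columns (2.34 over 4 members) was 2.97 with a pseudocount of 0.1, 2.52 with 0.5, 0.81 without a minimum level, which adds the 2 members at or near 0, 3.85 with a minimum of 5 RPKM, 2.51 with columns scaled to a common sum (which also shrinks the weight of the pseudocount), 2.62 with median-of-ratios scaling, 2.51 with quantile normalization and 2.60 with the GC and length trends removed. In the ATF3 columns (2.34) these were 3.59, 2.64, 0.77, 3.61, 2.67, 2.51, 2.51 and 2.74. At the 1 RPKM minimum both medians include MT1E and MT1G, which entered only through C8161, so nothing is read from the direction of either median. Median-of-ratios scaling moved the difference of the summed level from 3.91 to 4.19 (controls) and from 3.65 to 3.93 (ATF3), and the median of all genes by 0.25 in both; it took MT1X in the controls past 2-fold, to 1.10, and the share of higher calls among all genes past 2-fold from 31.2% to 45.6% in the controls and from 31.7% to 45.8% with ATF3 (46.5% and 47.1% with quantile normalization, which moved the median of all genes by 0.23 and 0.24). The C8161 ATF3 median went from −0.17 to −0.027 with the GC and length trends taken out, where the share of higher calls went from 44.7% to 78.0%; scaling to a common sum gave 61.7%. The difference between lines in the ATF3 ratio (median −0.29) was −0.13 without a minimum and −0.14 after trend removal. The causes were otherwise not tested. MT1G passed 2-fold between the controls with either other pseudocount (2.08 and 1.18), with columns scaled to a common sum and with quantile normalization (1.11). No paired analysis was possible because the table holds 1 combined column per C8161 group; leaving out single libraries was not run for the same reason. Depth limits MT1E, MT1F, MT1G and MT1M in A2058.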
